A study of Brassica oleracea var. italica with 2 samples.

Results

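Photosystem II is the chlorophyll-protein complex of the thylakoid membrane that takes electrons from water in light. Its core is encoded in the plastid genome, while the extrinsic proteins of the water-splitting side and the outer antenna are encoded in the nucleus. The plastid genes are transcribed mainly by the plastid's own bacterial-type RNA polymerase, mostly as operons whose long transcripts are then cut and trimmed. The genes described here were the 10 plastid photosystem II genes psbA, psbB, psbC, psbD, psbE, psbF, psbH, psbJ, psbL and psbM, taken by exact symbol from the array annotation out of 13350 genes with a single-gene probe set. Each of the 10 had 1 probe set. They belong to 69 plastid genes with a single-gene probe set.

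Signals came from 2 Arabidopsis oligonucleotide arrays hybridised with RNA from whole seedlings of broccoli, cultivar Elegance. One array held seedlings with 35S::antisenseBoEMF2.1, in which the 35S promoter, active in most plant tissues, drives BoEMF2.1 in reverse. The other held seedlings with the empty vector pCAMBIA1380 in the same wild type background. Both were 11 days old and had grown on agar plates under 16 h of light a day. The gene is related to EMF2 of Arabidopsis, a Polycomb group gene that holds back flower development. The genotype label of the antisense sample leaves out the word antisense, which its title and source name give. The labels do not say how many seedlings or transgenic lines were pooled. With 1 array a group there was no replicate error and no test, so every "higher" or "lower" is a statement on a pair of arrays.

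The arrays had a common 2% trimmed mean of 500.04 and correlated at r = 0.902 in log2 signal across the 9390 probe sets that reached the floor on both. As floor served the median signal of an array without its control probe sets, at 302.7 on the antisense array and 317.6 on the vector array. Ratios are log2 of antisense over vector signal, and a gene under the floor on 1 array has a bound. The SD of a single ratio, from 31 genes with a pair of probe sets, was 0.44, so the SD of a difference between 2 ratios was 0.62. This SD holds probe noise alone, without variation between plants. In control probe sets for the ends of actin, GAPDH and ubiquitin transcripts, the 5′ ratio exceeded the 3′ ratio in 4 of 5 pairs, by a median of 0.44 over the 5 (lowest -0.34, highest 0.62). The pairs repeat transcripts, with differences of 0.62 and 0.04 for actin, 0.52 and 0.44 for ubiquitin and -0.34 for GAPDH. Another GAPDH pair, with a difference of 0.50, was left out because its 3′ probe set was under the floor on both arrays. The part of this 5′ to 3′ difference between the arrays in the results below was not tested. Signals of different genes were not set against each other, since each probe set binds broccoli RNA with its own strength. No probe set is named for EMF2, so the targeted gene was not analysed here.

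All 10 plastid photosystem II genes had a lower signal on the antisense array than on the vector array, where 51.5% of all probe sets measured on at least 1 array did. The median ratio over the 10 was -0.999, with psbJ entered at its bound, against -0.02 over all 9390 probe sets measured on both arrays. Of the 9 genes measured on both arrays, 5 were 2-fold or more lower (psbL, psbF, psbH, psbD and psbM), where 3.5% of all such probe sets were. None of the 9 was 2-fold or more higher, where 3.01% of all such probe sets were. Scaling to the bacterial hybridization controls moved these shares of all probe sets to 6.23% lower and 1.64% higher. At 3-fold the count was 2 of 9 (psbL and psbF), where 0.319% of all such probe sets were as far lower, and at 1.5-fold it was 7 of 9, where 13.1% were, with psbJ as an eighth by its bound. The ratios ranged over 2.14 log2 units, from -2.40 for psbL to -0.26 for psbC, with an SD over the 10 genes of 0.63. In whole seedlings, fewer green cells or fewer plastids and less RNA per plastid cannot be told apart. The effect of the labelling on these ratios was not tested, and most plastid mRNAs lack the poly(A) tails on which it usually primes.

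**Figure D1:**
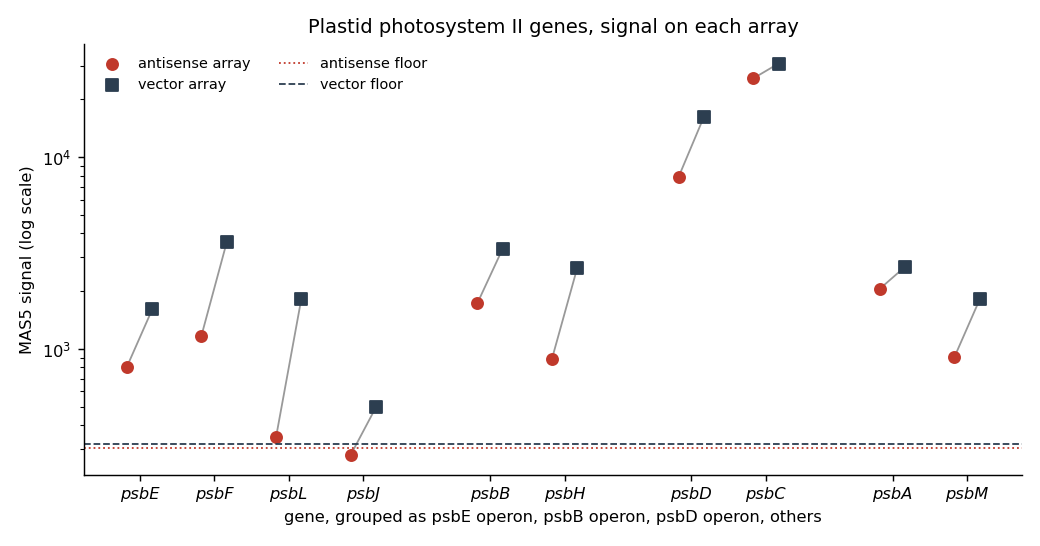
MAS5 signal (log scale) of the 10 plastid photosystem II genes on the antisense array (red circles) and the vector array (dark squares), 1 array each, with grey lines joining the values of a gene and horizontal lines at the 2 floors. Each red circle lies below its square, and psbJ on the antisense array, at 279, lies below the antisense floor of 302.7.

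Of the pair of genes for the reaction centre proteins, which bind the chlorophylls and quinones that separate charge, psbD had the lower ratio. The gene psbD encodes the D2 protein and had a signal of 7872.5 on the antisense array, against 16215.2 on the vector array, a ratio of -1.04 (2.06-fold lower). The gene psbA encodes D1, the subunit that is damaged by light and replaced fastest, and had 2058.2 on the antisense array, against 2684.4 on the vector array, a ratio of -0.38 (1.304-fold lower). The antisense signal was thus 48.6% of the vector signal for psbD and 76.7% for psbA. Their difference of 0.66 was slightly above the SD of a difference between ratios. Among all 9390 probe sets, 2.96% had a lower ratio than psbD and 23.3% a lower one than psbA.

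The inner antenna proteins CP47 and CP43 bind chlorophyll and pass excitation to the reaction centre. The CP47 gene psbB had 1726.2 on the antisense array, against 3324.4 on the vector array, a ratio of -0.95 (1.93-fold lower). The CP43 gene psbC had 25679.3 on the antisense array, against 30706.3 on the vector array, a ratio of -0.26 (1.196-fold lower). The psbC ratio was the one closest to 0 among the 10, and lay within 1 SD of a single ratio from 0, as did that of psbA. A lower ratio than that of psbC was found in 31.5% of all probe sets, and a lower one than that of psbB in 4.17%.

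Both subunits of cytochrome b559, a haem protein beside the reaction centre that is needed for assembly, had lower signals. The alpha subunit gene psbE had 805.5 on the antisense array, against 1605.7 on the vector array, a ratio of -0.995 (1.99-fold lower), just short of 2-fold. The beta subunit gene psbF had 1170.4 on the antisense array, against 3602.7 on the vector array, a ratio of -1.62 (3.08-fold lower). For psbF the antisense signal was 32.5% of the vector signal, against 50.2% for psbE. Only 26 of the 9390 probe sets had a lower ratio than psbF.

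The other 4 genes encode small subunits with a single membrane span each. The gene psbL, whose product lies at the interface of the monomers of the complex, had 345.4 on the antisense array, against 1821.8 on the vector array, a ratio of -2.40 (5.27-fold lower). This was the lowest ratio among the 63 plastid genes above the floor on both arrays, and 2 of the 9390 probe sets had a lower one. Its antisense signal was 1.14 times the floor, and a floor at the 75th percentile turned its ratio into a bound of -1.56. The gene psbH, for a subunit that is phosphorylated in light, had 882.9 on the antisense array, against 2636.5 on the vector array, a ratio of -1.58 (2.99-fold lower). That placed psbH beside psbF, with a difference of 0.04 between them. The gene psbM, whose product also lies at the dimer interface, had 906.5 on the antisense array, against 1815.4 on the vector array, a ratio of -1.002 (2.003-fold lower). The gene psbJ, for a small subunit near cytochrome b559, had 279 on the antisense array, against 495.5 on the vector array. As its antisense signal was under the floor, psbJ was at least 1.64-fold lower (a bound of -0.71), where the signals themselves gave -0.83.

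In order of their ratios the genes above the floor on both arrays ran psbL, psbF, psbH, psbD, psbM, psbE, psbB, psbA and psbC. The step from psbL to psbF, 0.78, was larger than the SD of a difference, and every other step was smaller, at most 0.56 (psbB to psbA). In the middle, psbD, psbM, psbE and psbB lay within 0.097 of each other. These lay on either side of 2-fold, so that counts at that threshold separate genes that differ by far less than the probe noise. Of the 36 pairs of genes, 9 differed by more than 2 SD of a difference (1.23), and all 9 had psbL, psbF or psbH as the lower member. In 6 of them it was psbL, set against psbD, psbM, psbE, psbB, psbA and psbC.

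The operon psbE-psbF-psbL-psbJ is read as 1 transcript in land plants, with the reading frames close together. Its ratios were -0.995, -1.62 and -2.40 for psbE, psbF and psbL, and at most -0.71 for psbJ, with a median of -1.31. From psbE to psbL the ratio dropped by 1.404, past 2 SD of a difference. The next frame, psbJ, has a bound, which sets no lower limit on its ratio. The differences of 0.63 between psbE and psbF and of 0.78 between psbF and psbL were within 2 SD. The drop past 2 SD thus rests on psbL, whose antisense signal was 1.14 times the floor. Under the highest floor tried, psbL had only a bound of -1.56, from which no such drop can be read. Whether the genes of this operon share 1 common ratio was therefore not settled, though each signal was lower on the antisense array.

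The psbB cluster is transcribed as psbB-psbT-psbH-petB-petD, with psbN on the opposite strand between psbT and psbH. The photosystem II genes psbB and psbH stood at -0.95 and -1.58, a difference of 0.63. The genes petB and petD encode cytochrome b6 and subunit IV of the cytochrome b6f complex, which receives electrons from photosystem II by way of plastoquinone. For petB the signal was 5477.8 on the antisense array, against 10269.2 on the vector array, a ratio of -0.91, within 0.04 of psbB. For petD the signal was 901.7 on the antisense array, against 847.1 on the vector array, a ratio of 0.09. The difference of 1.67 between psbH and petD was past 2 SD, although the 2 genes share a primary transcript, and petD was the only member of the cluster with a higher signal on the antisense array. Scaled to the bacterial hybridization controls, which lowers every ratio by 0.19, petD stood at -0.10. The small subunit gene psbT had 8.5 on the antisense array, against 348.6 on the vector array. As the vector signal was barely above its floor, the bound for psbT was -0.20 and says little about size. The gene psbN, whose product acts in assembly of the complex in tobacco, stood at -0.52, with 942.1 on the antisense array against 1349.5 on the vector array.

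The reading frames of psbD and psbC overlap, and psbZ lies downstream of them. In the green plastids of several species this cluster has more than 1 promoter, among them one upstream of psbD that responds to blue light. The ratio of psbD was 0.78 below that of psbC, more than 1 SD of a difference and less than 2. The gene psbZ, for a small subunit that helps hold the antenna in tobacco, had 15578.7 on the antisense array, against 18797.9 on the vector array, a ratio of -0.27, within 0.01 of psbC. The cluster thus held 1 gene at about 2-fold lower, psbD, and a pair, psbC and psbZ, at 1.196-fold and 1.207-fold lower.

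The remaining genes, psbA and psbM, were set beside their neighbours on the plastid genome. The psbA ratio of -0.38 lay within 0.07 of that of matK, which encodes an intron maturase next to psbA and had 445.4 on the antisense array, against 552.7 on the vector array (-0.31). The psbM ratio of -1.002 lay 0.45 below that of petN (-0.55), a small cytochrome b6f subunit gene, at 1348.4 on the antisense array against 1972 on the vector array. Another pair of photosystem II genes outside the 10, psbK and psbI, stood at -0.38 and -1.32. The gene psbI had 2750.3 on the antisense array, against 6843.3 on the vector array, and was the one further plastid photosystem II gene that was 2-fold or more lower. The 5 genes psbI, psbK, psbN, psbT and psbZ were all lower by signal, with a median ratio of -0.38. Of all probe sets measured on at least 1 array, 51.5% were lower by signal. Over all 15 plastid photosystem II genes the median was -0.95.

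**Figure D2:**
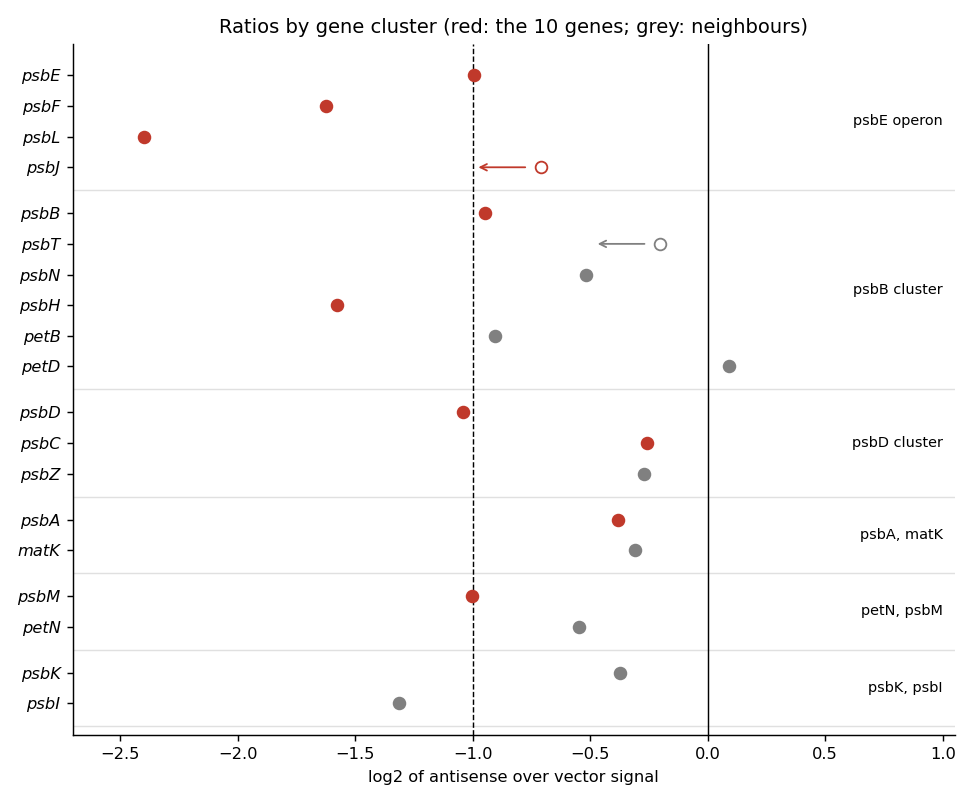
Log2 of antisense over vector signal for the 10 plastid photosystem II genes (red) and their neighbours (grey), grouped by gene cluster, 1 probe set a gene. Open circles with arrows are bounds, and the dashed line marks 2-fold lower. Ratios within the psbE operon run from -0.995 (psbE) to -2.40 (psbL), and within the psbB cluster from 0.09 (petD) to -1.58 (psbH).

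Pairs of genes within an operon were set beside pairs across operons. The median size of the difference was 0.78 over the 5 pairs of the 10 genes that share an operon, and 0.62 over the 31 pairs that do not. Past 2 SD were 1 of the 5 pairs and 8 of the 31. Of the 5 pairs, 3 come from the psbE operon, the pairs share genes and arrays, and psbJ is not among them, so no order is read from these values.

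Of 57 other measured plastid genes, 54 had a lower signal on the antisense array too, set beside all 10 photosystem II genes. The 3 with a higher signal were rps15 (ratio 0.51), petD (0.09) and atpF, which was under the vector floor. The photosystem II genes have to be read against these other plastid genes. Of 54 other plastid genes measured on both arrays, 19 (35.2%) were 2-fold or more lower, set beside 5 of the 9 photosystem II genes (55.6%). The 54 include the photosystem II genes psbI, psbK, psbN and psbZ. Over all plastid photosystem II genes measured on both arrays, the count was 6 of 13 (46.2%). The median was -0.75 over 57 other measured plastid genes and -0.999 over the 10, and relative to the plastid median of -0.82 that of the 10 was -0.18. The difference between the groups was not tested, with 1 array each, and the plastid median includes the 10. By complex, the median was -1.05 for 6 cytochrome b6f genes, of which petL, petG and petA were 2-fold or more lower (-1.37, -1.22 and -1.20). It was -0.79 for 6 genes of photosystem I with rbcL, of which psaA, for a core protein of photosystem I, was 2-fold or more lower (-1.37). The NDH complex, which returns electrons to plastoquinone, had a median of -0.63 over 9 genes, with ndhJ, ndhE, ndhD and ndhH 2-fold or more lower (-1.77, -1.66, -1.09 and -1.02). The ATP synthase genes had a median of -0.29 over 6, and 0 were 2-fold or more lower. Subunit genes of the plastid-encoded RNA polymerase were lower as well, with rpoA and rpoB at -1.01 each, rpoC2 at -0.83 and rpoC1 at -0.50. The median over these 4 was -0.92, and any link to the psb ratios was not tested.

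**Figure D3:**
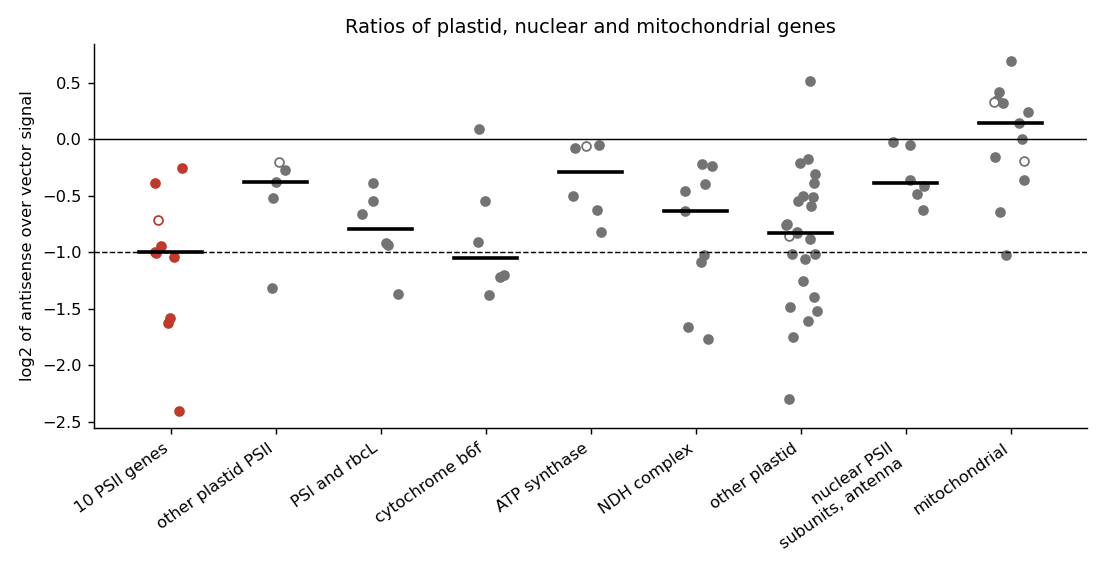
Log2 of antisense over vector signal for measured genes of 9 groups, with 1 point a gene, open points for bounds and bars at group medians. The medians were -0.999 for the 10 photosystem II genes, -1.05 for cytochrome b6f, -0.29 for ATP synthase and 0.15 for the mitochondrial genes, and the ranges of the plastid groups overlap.

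Within the plastid, psbL, psbF and psbH ranked 1, 6 and 8 from the lowest of 63 genes, and psbA and psbC ranked 50 and 55. The photosystem II genes thus ran from the lowest plastid ratio to rank 55, with 8 other plastid genes above psbC. The ribosomal protein gene rps3, at rank 2 with a ratio of -2.30, was the nearest to psbL.

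The genes were also set beside probe sets of similar brightness. Between the lowest and highest mean signals of the 9 genes lay 4013 probe sets, with a median ratio of 0.03, and 3.76% of them were 2-fold or more lower. Across the 9 genes the ratio correlated with mean log2 signal at Pearson's r = 0.62 and Spearman's rho = 0.58. Across the 54 other plastid genes these were 0.10 and 0.10. The points share the arrays, and the signals of both arrays enter both axes. With log2 vector signal alone, the 9 genes gave r = 0.47 and rho = 0.25, and the vector signal still enters both axes.

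**Figure D4:**
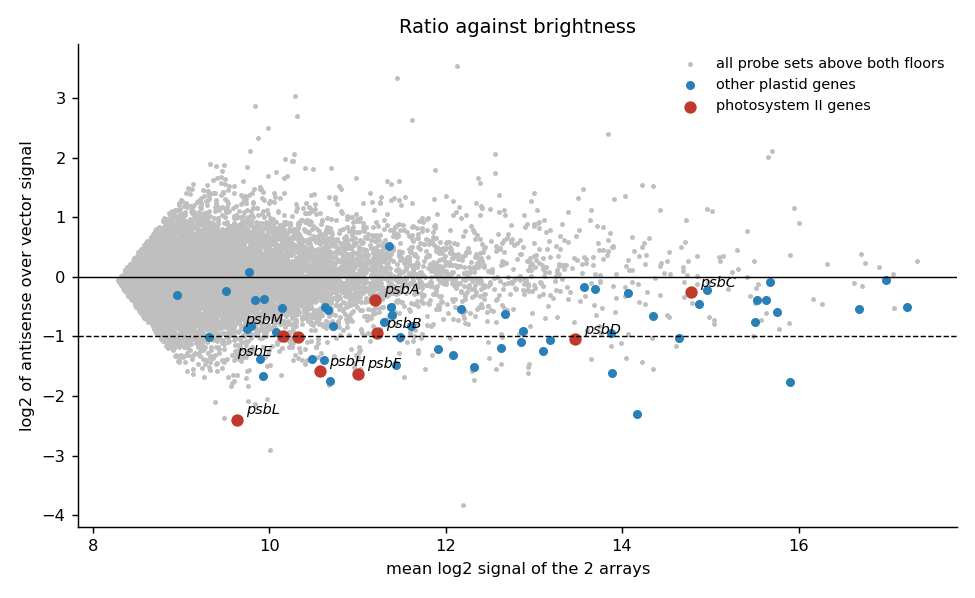
Log2 of antisense over vector signal against mean log2 signal for 9390 probe sets above both floors (grey), other plastid genes (blue) and 9 photosystem II genes (red, named), with the dashed line at 2-fold lower. The named genes lie below 0, from psbC at -0.26 to psbL at -2.40, across dim and bright signals.

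The nuclear genes that supply the rest of photosystem II were thinly covered by the annotation, with 11 of 84 listed names (aliases included) matched and 10 measured. None of these 10 was 2-fold or more higher or lower, where 3.01% and 3.5% of all probe sets measured on both arrays were, so a count of 0 in 10 lies near the background. The subunit genes had ratios of -0.62 for PSBY (971.3 on the antisense array, against 1496.3 on the vector array), -0.36 for PSB27, an assembly protein, and -0.02 for PSBW. The genes for the minor antenna protein CP29 stood at -0.49 for LHCB4.3, -0.41 for LHCB4.2 and -0.05 for LHCB4.1. LHCB4.2 had 16275.6 on the antisense array, against 21671.5 on the vector array, and LHCB4.3 had 668.1 on the antisense array, against 937 on the vector array. These antenna genes of green tissue were above the floor on both arrays, and the share of green tissue was not measured. The subunit and antenna genes were thus all lower by signal, by less than the median of the plastid genes. Of all probe sets measured on at least 1 array, 51.5% were lower by signal. PSBW lay at the median ratio of all probe sets measured on both arrays (-0.02), with LHCB4.1 near it, so no direction is read for these genes.

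Of the 4 measured assembly factors, 2 were lower and 2 higher by signal, where 51.5% of all probe sets measured on at least 1 array were lower. The 2 higher ones, PAM68 and LPA66, lay within 1 SD of a single ratio from 0, so no direction is read for them. LPA1, which helps insert D1, stood at -0.52 and LPA2, which acts on CP43, at -0.46. PAM68, another factor for the core, stood at 0.23, with 868.4 on the antisense array against 739.4 on the vector array, and LPA66, which edits psbF transcripts in Arabidopsis, at 0.06 (351.6 on the antisense array, against 338 on the vector array). Among the 10 nuclear genes, PSBY, LHCB4.3, LPA1 and LPA2 lay more than 1 SD of a single ratio below 0. LPA2 was the closest of them to 0, and 19.0% of all probe sets measured on both arrays had a lower ratio. Its antisense signal was 1.24 times the floor, and the signals of LPA66 were 1.16 times the antisense floor and 1.06 times the vector floor. The ratio of LPA66 became -0.14 and that of PAM68 0.04 with hybridization-control scaling. LPA19 was below the floor on both arrays, and no name was matched for the sigma factors and other nuclear proteins of plastid transcription.

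Of 31 listed names for genes of the mitochondrial genome, whose transcripts come from the other organelle, 16 were matched and 13 measured. By signal 7 of the 13 were higher and 6 lower on the antisense array, where 51.5% of all probe sets measured on at least 1 array were lower. Among the 11 measured on both arrays, 1 (nad4, at -1.02) was 2-fold or more lower, where 3.5% of all such probe sets were. The median ratio over the 13 was 0.15. With hybridization-control scaling this median was -0.047. Of 12 listed root genes 3 were matched, each above the floor on both arrays. The root hair expansin genes EXPA7 and EXPA18 stood at 1.63 and 0.80, while the root beta-glucosidase gene PYK10 stood at -0.44. The vector signal of EXPA7, 374.7, was only 1.18 times the vector floor. The part of root or shoot share of the seedlings in the photosystem II ratios was not tested.

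The direction was the same for all 10 genes under each scaling of the arrays. The number of genes 2-fold or more lower was 5 as deposited, 4 after centring on the median, and 7 with quantile, loess or hybridization-control scaling. The genes that crossed the threshold were psbM, psbE and psbB. The ratios of psbL, psbF, psbH and psbD stayed past 2-fold under all 5 scalings. That of psbD lay closest to it, between -1.24 and -1.02.

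**Figure D5:**
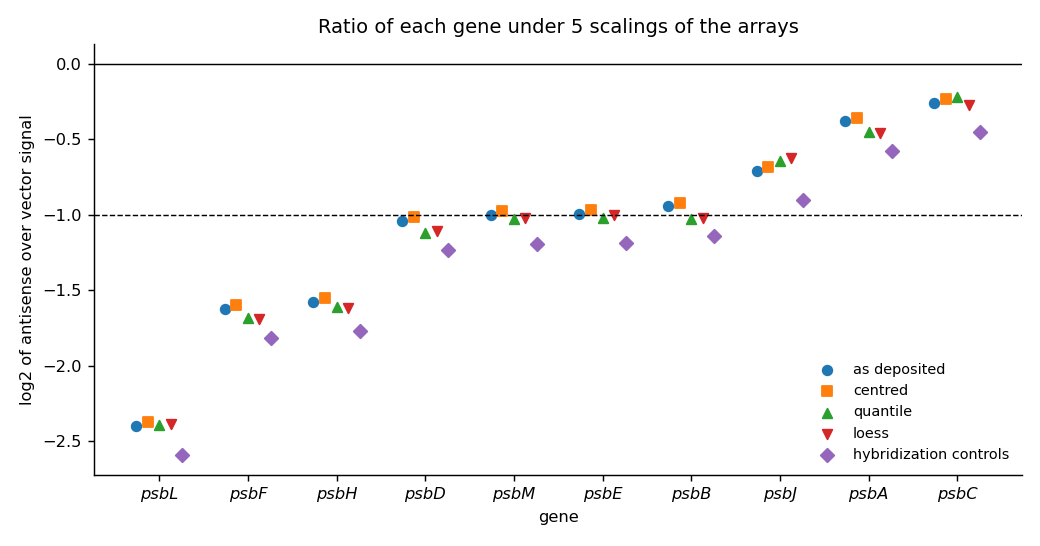
Log2 of antisense over vector signal of each of the 10 genes under 5 scalings of the arrays (symbols), with the dashed line at 2-fold lower and psbJ as a bound. All points lie below 0, and psbD, psbM, psbE and psbB lie close to the dashed line under each scaling.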

How the data were processed

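Per the labels, RNA of whole seedlings came from a Trizol extraction, and 10 µg of it gave biotinylated cRNA by the standard Affymetrix protocol. That protocol usually primes on poly(A) tails, which most plastid mRNAs lack, and the effect on these signals was not tested. The deposited values are signal intensity, linear and with 1 value for each probe set of an array. They came from MAS5, per the submitters' processing notes; its version is not given in the sources used here. The arrays carry 22810 probe sets for Arabidopsis, 64 of them controls, so a low signal can reflect sequence differences in broccoli. Of all probe sets, 13513 are annotated to 1 gene and 503 to several, and 8794 are unnamed here.

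The floor was the median of 22746 probe sets, controls left out. Lower signals were set to it, and log2 ratios were taken where at least 1 array was at or above it. A gene with several probe sets was given by the brightest. The threshold was 2-fold. All 10 genes were named. In the photosynthesis complexes, the neighbours and the nuclear lists, genes past 2-fold were named, and otherwise up to 4. Further names (matK, psbK, rpo genes, rps3, rps15, nad4, root genes) and values within those lists were chosen after their values were seen. Members and lists were chosen with earlier results of these data known. The SD of a ratio came from 31 pairs of probe sets with 1 gene name. The procedure was tested on simulated data with known shifts on bright probe sets alone, so dim genes such as psbL and psbJ were not covered. The number of arrays limits the precision. Other scalings, floors and thresholds were tried. Computation used Python 3.11.15, statsmodels 0.14.6 (loess span 0.4), scipy 1.17.1, pandas 2.3.3, matplotlib 3.10.9 and numpy 2.4.6.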

Additional observations from a re-analysis of the deposited data

How the results depend on the processing

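No paired analysis was possible because there is 1 array on each side, and for the same reason none was dropped. Each of the 10 ratios stayed negative under every alternative scaling, floor and pseudocount that gave it a value, and psbJ has no value with the floor at the 75th percentile. The median of -0.999 lay between -1.19 and -0.18 over 11 alternatives. The value of -0.18, relative to the plastid median, was chosen after seeing the data, as was leaving out psbJ. Relative to that median psbC stood at 0.56, psbA at 0.43 and psbJ at 0.10 as a bound, and the other genes were negative. The count of genes 2-fold or more lower, 5, became 8 at 1.5-fold and 2 at 3-fold, where 13.1% and 0.319% of all probe sets were as far lower. The share of all probe sets 2-fold or more lower, 3.5%, became 6.23% with hybridization-control scaling, 8.95% with the floor at the 25th percentile, 16.2% with no floor and 7.80% with a pseudocount. With hybridization-control scaling, petD turned to -0.10, LPA66 to -0.14 and the mitochondrial median to -0.047. Floors and pseudocounts set how many dim probe sets enter. The psbE operon median lay between -1.56 and -1.23, that of psbB with psbH between -1.46 and -1.20, and that of psbD with psbC between -0.84 and -0.63. Dim signals limit psbL and psbJ most.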
